A study of Mus musculus with 6 samples.

Results

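The heat-shock system of early mouse embryos is described here through 10 genes, taken by name from the 23259 gene names of an S4U-seq table. They are the transcription factor genes Hsf1 and Hsf2, the cytosolic HSP70 and HSP110 genes Hspa1a, Hspa1b, Hspa8 and Hsph1, the cytosolic HSP90 genes Hsp90aa1 and Hsp90ab1, the endoplasmic reticulum chaperone gene Hspa5 and the mitochondrial chaperonin gene Hspd1. All 10 were found in the table. The groups were zygotes labelled Pabpn1l-null, wild-type (WT) 2-cell embryos and WT zygotes, with 2 samples each. PABPN1L is an oocyte poly(A)-binding protein that takes part in the clearance of maternal mRNA, and the series title links that clearance to the timing of transcription. Per the labels' protocols, samples of 50 embryos from mated females were given 200 μM 4-thiouridine for 2 h from 26 h after hCG, the hormone that triggers ovulation. That text speaks of zygotes for all 6 samples, and those sources do not say when 2-cell embryos were collected, which strain and age the mice had, or how the null allele was made.

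4-thiouridine is built into RNA as it is made, and after alkylation it is read as a T-to-C mismatch, so T-to-C reads include those of RNA made during labelling. There was no unlabelled control, and an unknown part of the T-to-C reads comes from sequencing error or sequence differences. Heat-shock factors are transcription factors that bind inverted repeats of the bases GAA, called heat-shock elements, upstream of chaperone genes. HSP70 and HSP90 proteins, with their co-chaperones, fold and refold other proteins, and each family has forms made at all times and forms made under stress. HSF1 is needed as a maternal factor for the first divisions of the mouse embryo, and Hspa1a and Hspa1b are classical early products of the mouse embryonic genome.

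The promoters below were searched for short elements, and no element was found in all of them. They are RefSeq sequences on GRCm38.p6, given for 6 of the 10 members (Hsf2, Hspa1a, Hspa1b, Hsph1, Hspa5 and Hspd1). They were searched over the 250 bases before each start site. Capitals mark a pair of heat-shock repeats, GAANNTTC or TTCNNGAA (each is its own reverse complement, and the 2 can overlap), or, in Hspa5, the endoplasmic reticulum stress element (CCAAT and CCACG with 9 bases of any kind between them), searched on both strands. The first pair of sequences is chr17:34959239-34959488 and chr17:34972157-34972406, both on the minus strand, and the third is chr2:34771840-34772089 on the plus strand.
Hspa1b: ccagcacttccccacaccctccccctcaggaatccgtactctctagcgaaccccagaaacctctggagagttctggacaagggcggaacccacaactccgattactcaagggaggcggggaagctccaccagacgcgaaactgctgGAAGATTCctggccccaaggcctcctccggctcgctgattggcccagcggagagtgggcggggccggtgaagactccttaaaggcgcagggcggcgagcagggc
Hspa1a: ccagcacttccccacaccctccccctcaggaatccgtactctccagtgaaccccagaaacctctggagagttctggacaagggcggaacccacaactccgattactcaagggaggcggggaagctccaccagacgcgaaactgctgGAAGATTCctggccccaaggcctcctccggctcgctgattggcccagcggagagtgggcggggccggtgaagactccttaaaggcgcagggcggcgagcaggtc
Hspa5: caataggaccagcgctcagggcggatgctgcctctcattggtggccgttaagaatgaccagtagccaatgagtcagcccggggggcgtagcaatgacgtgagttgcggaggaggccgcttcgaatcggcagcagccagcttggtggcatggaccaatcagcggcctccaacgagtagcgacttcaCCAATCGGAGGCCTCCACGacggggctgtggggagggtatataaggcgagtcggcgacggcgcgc
Of Hsph1 and Hspd1 only the stretch around the match is shown (chr5:149636357-149636374 and chr1:55088054-55088081, both on the minus strand), since the bases before these start sites lie inside longer transcripts of the same gene.
Hsph1: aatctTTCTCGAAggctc
Hspd1: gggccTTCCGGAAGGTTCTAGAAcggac
The Hspa1a and Hspa1b promoters differed at 3 of 250 bases, and both hold their match 104 bases before the start. The Hspd1 stretch shown holds 3 overlapping matches, while the promoter of another Hspd1 start site holds 0. A pair of heat-shock repeats was present in 4 of the 6 members with a promoter (Hspa1a, Hspa1b, Hsph1 and Hspd1), and in 12.8% of the 32851 promoters of the RefSeq table. Members were counted per gene, with a match in any of its promoters, and the RefSeq table per promoter, so these shares are not like for like. The endoplasmic reticulum stress element was found in Hspa5 among the members and in 0.113% of all promoters. TATAAA was found in 0 of the 6 and in 12.4% of all promoters. A match is a description of these letters and says nothing of binding in these embryos.

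Each group has a single total-read column and a single T-to-C column (1 each), so no difference below has a replicate check, and each test compares libraries, not conditions. The Pabpn1l-null column held 1270347 reads with a T-to-C share of 3.86%, the 2-cell column 4020444 with 4.54%, and the WT zygote column 3001472 with 3.03%. Null-zygote reads were clumped. Where the WT zygote level predicted 3 to 5 reads, 58.3% of 1295 genes were at 0 in null zygotes, where independent reads would leave 2.45%. Put down wholly to clumping, this excess of zeros corresponds to 7.21 reads per molecule. Counting error of the WT zygote level and real differences between the columns were not separated from it. Clumping was estimated in this way for the null column alone, and the same value was assumed for the 2-cell and WT zygote columns. Reads of every column were counted as 1 molecule per 7 reads for the exact conditional binomial test, Fisher's exact test and 95% intervals. These tests and intervals cover counting error only. An alternative test from edgeR, given below, took reads undivided. Levels are reads per 1000000 reads of a column (RPM), scaled by its TMM factor. Gene positions are on GRCm38.p6. A count of 0 was taken to allow 21 reads, or 15.9, 5.42 and 7.02 RPM in the null, 2-cell and WT zygote columns. Pabpn1l itself had 4 reads in null zygotes, 14 in 2-cell embryos and 47 in WT zygotes, and the null-to-WT ratio of 0.192 (0.00716 to 2.51) was within counting error. The columns otherwise carried most markers of their labels. The 15 oocyte and zygote markers summed to 19299, 4687 and 15814 RPM in null zygotes, 2-cell embryos and WT zygotes, and the 2-cell markers to 89.1, 4812 and 133. Cumulus and granulosa markers summed to 65.0, 106 and 112, sperm and testis markers to 224, 619 and 166 and blood markers to 0.756, 16.5 and 14.0 RPM in the same order, with 4 cumulus and granulosa markers (Amh, Inhba, Ptx3 and Tnfaip6) and 4 sperm markers (Prm1, Tnp2, Acr and Spem1) at 0 in every column. Of 20 listed 2-cell markers 19 were found, and 17 had at least 20 reads in 2-cell embryos, while Tcstv1 and Tcstv3 were at 0 in every column. In pooled embryos, fewer cells with a transcript and less of it per cell cannot be told apart.

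**Figure D1:**
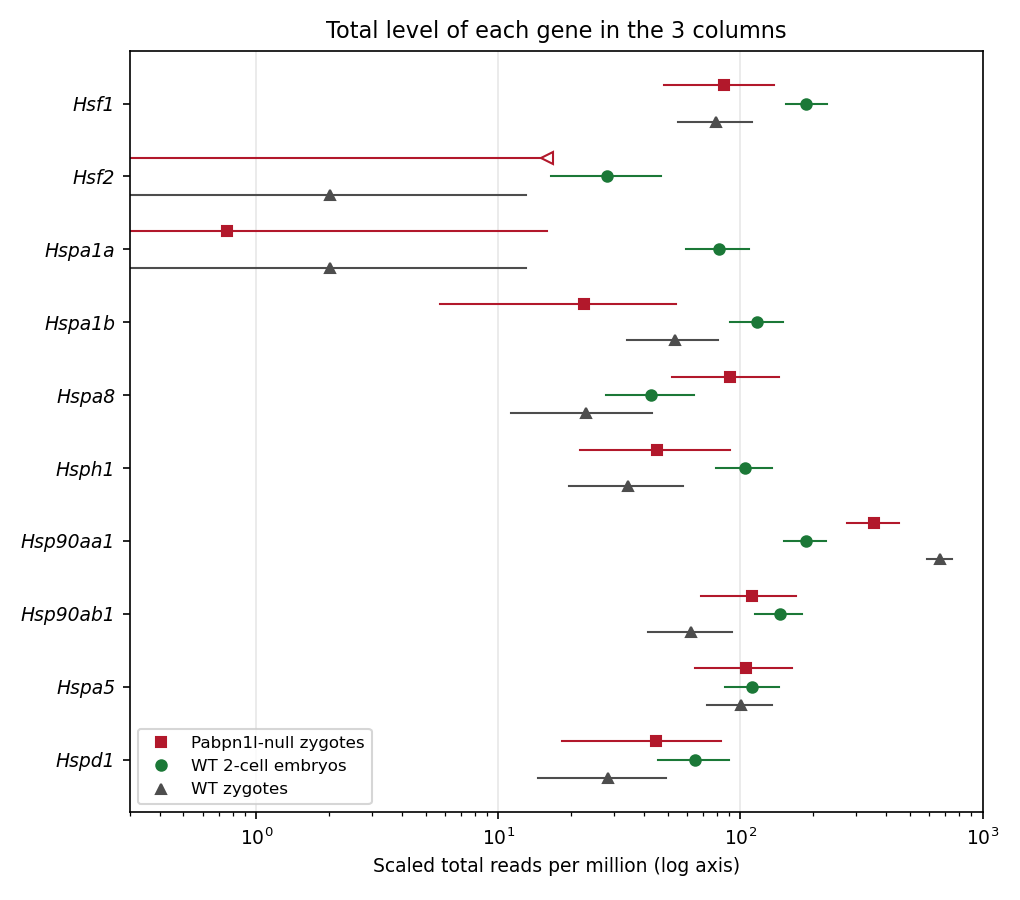
Scaled total reads (RPM, log axis) of the 10 genes in Pabpn1l-null zygotes (squares), WT 2-cell embryos (circles) and WT zygotes (triangles). Lines are 95% Poisson intervals on molecules, and the open triangle stands at the limit that a count of 0 allows (15.9 RPM). Hsp90aa1 has its lowest level in 2-cell embryos, while Hspa1a and Hsf2 had at most 6 reads in either zygote column, with upper limits of 15.9 RPM in null zygotes and 13.0 RPM in WT zygotes.

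At the 2-cell stage most of these genes stood above WT zygotes in total reads and Hsp90aa1 fell. A gene was called where the exact conditional binomial test gave a Benjamini-Hochberg adjusted p under 0.05 over all 11262 genes tested and the difference was at least 2-fold. Of the 10 members 7 were called higher and 1 lower, where 17.2% of all genes were called higher and 16.9% lower (34.1% in either direction). Hsf2 and Hspa1a passed the filter of 20 reads through the 2-cell column alone. That favoured a higher 2-cell level, so their calls carry no weight. Of the 8 members that passed on the zygote columns, 5 were higher and 1 lower. The median log2 ratio was 1.18 over the 10 members and 0.04 over all genes, or 0 over all genes with those at 0 in 1 column set at their bound. With edgeR's exact test on undivided reads, at an assumed biological variation of 0.4, Hsf2 and Hspa1a alone kept their calls. The other 6 were lost.

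Among the factors, Hsf1, the main stress-responsive heat-shock factor (chr15:76477362-76501155), had 113 reads in null zygotes, 725 in 2-cell embryos and 238 in WT zygotes. Its level was 187 RPM in 2-cell embryos and 79.6 in WT zygotes, a ratio of 2.35 (1.59 to 3.59; exact conditional binomial test, adjusted p = 2.48e-05). Null zygotes, at 85.4 RPM, differed from WT zygotes by a ratio of 1.07 (0.548 to 1.98), within counting error. Hsf2, a factor expressed in germ cells and embryos (chr10:57483766-57513143), had 0 reads in null zygotes, 109 in 2-cell embryos and 6 in WT zygotes, so that it was at or under the detection limit in both zygote columns and above it in 2-cell embryos. Its 2-cell ratio of 14.0 has an interval of 1.92 to 518, because the WT count is so small.

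Labelled RNA of Hsf1 was higher at the 2-cell stage. It had 0 T-to-C reads in null zygotes, 217 in 2-cell embryos and 5 in WT zygotes, a 2-cell ratio of 33.5 (3.99 to 975; exact conditional binomial test, adjusted p = 1.83e-05). Hsf1 passed the filter of 10 T-to-C reads through the 2-cell column alone. That favoured a higher 2-cell level, so the call of Hsf1 in T-to-C reads carries no weight. The share of its reads with a mismatch was 0% in null zygotes, which allows up to 18.8% at 16 molecules, 29.9% (21.2 to 39.6) in 2-cell embryos and 2.10% (0.0744 to 15.3) in WT zygotes. The difference in share between 2-cell embryos and WT zygotes passed Fisher's exact test on molecules (adjusted p = 0.0421), where 1 of 8 members tested was called and 1.85% of 6909 genes were called higher, 0.0579% lower and 1.91% in all. It did not pass when genes with 7 or more reads were tested as well (adjusted p = 0.0557). T-to-C reads made up 50.5% of the 2-cell excess of Hsf1 over WT zygotes, and its reads without a mismatch were also 1.68-fold those of WT zygotes. Hsf2, with 109 reads at the 2-cell stage, had 0 T-to-C reads in every column, and its share there was at most 18.8%.

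**Figure D2:**
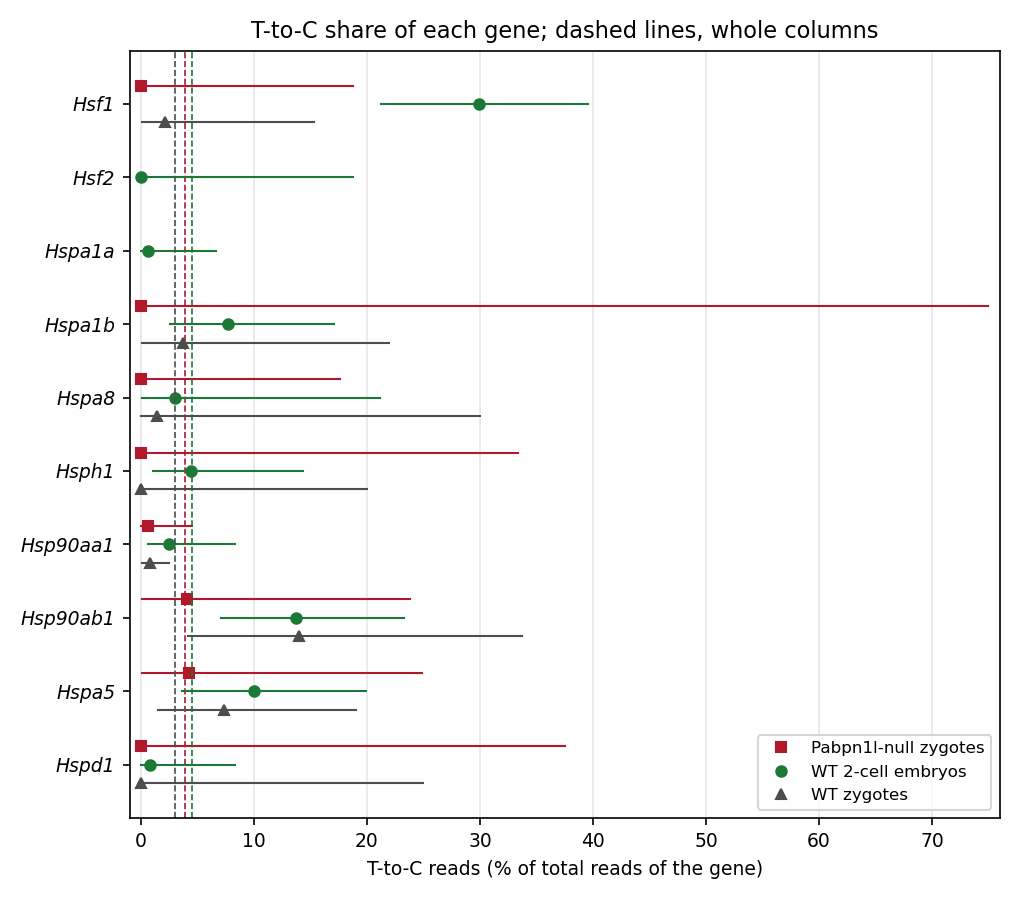
T-to-C reads as a percentage of each gene's total reads in Pabpn1l-null zygotes (squares), WT 2-cell embryos (circles) and WT zygotes (triangles), with 95% Clopper-Pearson intervals on molecules or, at 0 molecules, the limit that a count of 0 allows. Groups with under 3 molecules are not drawn and dashed lines are whole columns (3.86%, 4.54% and 3.03%); the 29.9% of Hsf1 in 2-cell embryos lies apart from its zygote values.

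Other members had few T-to-C reads, and Hsf1 alone of the 6 tested was called (4.34% of 4376 genes were called higher at the 2-cell stage and 1.69% lower, 6.03% in all). Of those 6, Hsf1, Hspa1b and Hsph1 passed the filter of 10 T-to-C reads through the 2-cell column alone. Hsp90ab1 had 6 T-to-C reads in null zygotes, 77 in 2-cell embryos and 26 in WT zygotes. These were 4.05%, 13.7% (7.07 to 23.3) and 14.0% (4.19 to 33.7) of its reads. Its measured share was nearly equal in both WT columns while its level differed, but these intervals are too wide to establish equal shares. Hspa5 had 6, 43 and 22, or 4.29%, 9.98% and 7.33%. Hspa1b had 0, 35 and 6, which is 7.69% (2.54 to 17.0) in 2-cell embryos and 3.73% (0.110 to 21.9) in WT zygotes. Hsph1 had 0, 18 and 0, and Hsp90aa1 3, 18 and 15. Hspa8, Hspa1a and Hspd1 had between 0 and 5 in any column. Counting every read as a molecule, Hsp90ab1, Hspa1b and Hsph1 were called higher as well.

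The members as a sum had 15 T-to-C reads in null zygotes, 417 in 2-cell embryos and 75 in WT zygotes, of which Hsf1 supplied 0%, 52.0% and 6.67%. The authors' deposited table marks Hsf1, Hspa1b, Hsp90ab1 and Hspa5 as Positive in 2-cell embryos, a mark that 5.83% of all gene names carry there. The authors' deposited table marks 0 of the 10 as Positive in null zygotes (4.26% of names) and 0 in WT zygotes (2.85% of names). How a gene earned this mark is not stated there.

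Both stress-inducible HSP70 genes were called higher in 2-cell embryos, Hspa1a by far more than Hspa1b. Hspa1a (chr17:34969359-34972156) had 1 read in null zygotes, 315 in 2-cell embryos and 6 in WT zygotes, a 2-cell ratio of 40.5 (5.93 to 1402; exact conditional binomial test, adjusted p = 2.61e-09). It was at or under the detection limit in both zygote columns. Hspa1a passed the filter of 20 reads through its 2-cell reads alone, which favoured a higher 2-cell level. Hspa1b (chr17:34956429-34959238), whose promoter is shown above beside that of Hspa1a, had 30 reads in null zygotes, 455 in 2-cell embryos and 161 in WT zygotes. Its 2-cell ratio was 2.18 (1.34 to 3.68, adjusted p = 0.00301 by the same exact test). In null zygotes its ratio to WT zygotes was 0.421 (0.0988 to 1.15), which did not pass, although with every read counted as a molecule it was called lower (adjusted p = 1.92e-05). These genes are near-identical copies, and their reads may be split or shared between them, so the difference between them is uncertain.

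Only a small part of the 2-cell excess of Hspa1a and Hspa1b lay in labelled reads. T-to-C reads were 0.651% of the excess for Hspa1a and 11.05% for Hspa1b, against 50.5% for Hsf1. For the other members with an excess, called or not, this part was 0% (Hsf2), 1.42% (Hspd1), 4.83% (Hspa8), 6.60% (Hsph1), 13.5% (Hsp90ab1) and 34.2% (Hspa5). A small part was therefore not particular to Hspa1a and Hspa1b. For Hspa1a the T-to-C share at the 2-cell stage was 0.635%, with an upper limit of 6.67% from 45 molecules, which lies below the lower end for Hsf1 (21.2%). The number of T bases per read and the time of collection bear on such shares, and their part was not tested.

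Hspa8, the HSP70 form made at all times (chr9:40801276-40805202), was the 1 member called in null against WT zygotes, where 1.43% of genes were called. It had 120 reads in null zygotes, 166 in 2-cell embryos and 69 in WT zygotes, so that the column with the fewest reads in all had more reads of Hspa8 than the WT zygote column. Its level was 90.7 RPM in null zygotes and 23.1 in WT zygotes, a ratio of 3.93 (1.66 to 9.39; exact conditional binomial test, adjusted p = 0.0247). The 2-cell level of 42.9 RPM gave a ratio of 1.86 (0.854 to 4.34) to WT zygotes and did not pass. Hspa8 had 0 T-to-C reads in null zygotes, which allows a share of up to 17.6%, 5 in 2-cell embryos and 1 in WT zygotes, so its higher level in null zygotes came with no labelled read. With that edgeR test the null call was lost (adjusted p = 0.296).

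Hsph1 encodes HSP110, which helps HSP70 exchange nucleotide (chr5:149616843-149636498). It had 60 reads in null zygotes, 406 in 2-cell embryos and 103 in WT zygotes. The 2-cell ratio was 3.04 (1.67 to 5.67; exact conditional binomial test, adjusted p = 2.21e-04), and the null ratio of 1.32 (0.523 to 3.31) did not pass.

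The cytosolic HSP90 genes moved in opposite directions between the WT columns. Hsp90aa1, the stress-inducible form (chr12:110691036-110696395), had 472 reads in null zygotes, 722 in 2-cell embryos and 1987 in WT zygotes. Its level was 357, 186 and 665 RPM in the same order, with intervals of 275 to 450, 152 to 226 and 590 to 747 that do not overlap. It fell to a 2-cell ratio of 0.281 (0.221 to 0.352; exact conditional binomial test, adjusted p = 7.47e-31). Null zygotes lay between the WT columns, at 0.537 of WT zygotes (0.402 to 0.698), a difference with an adjusted p of 1.19e-04 by the exact test but smaller than 2-fold, so that it was not called.

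Hsp90ab1, the form made at all times (chr17:45567778-45573261), had 148 reads in null zygotes, 562 in 2-cell embryos and 186 in WT zygotes. Its 2-cell ratio was 2.33 (1.46 to 3.68; exact conditional binomial test, adjusted p = 5.34e-04), and its null ratio of 1.80 (0.944 to 3.23) did not pass. The reads of Hsp90aa1 per read of Hsp90ab1, which need no scaling between columns but are not per length, were 3.19 in null zygotes, 1.28 in 2-cell embryos and 10.7 in WT zygotes. Hsp90aa1 held 41.3%, 17.4% and 63.3% of all reads of the 10 genes. The sum of all 10 was 864, 1069 and 1050 RPM in null zygotes, 2-cell embryos and WT zygotes, and 507, 883 and 386 without Hsp90aa1, so the WT columns had near-equal sums with Hsp90aa1 and unequal sums without it.

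**Figure D3:**
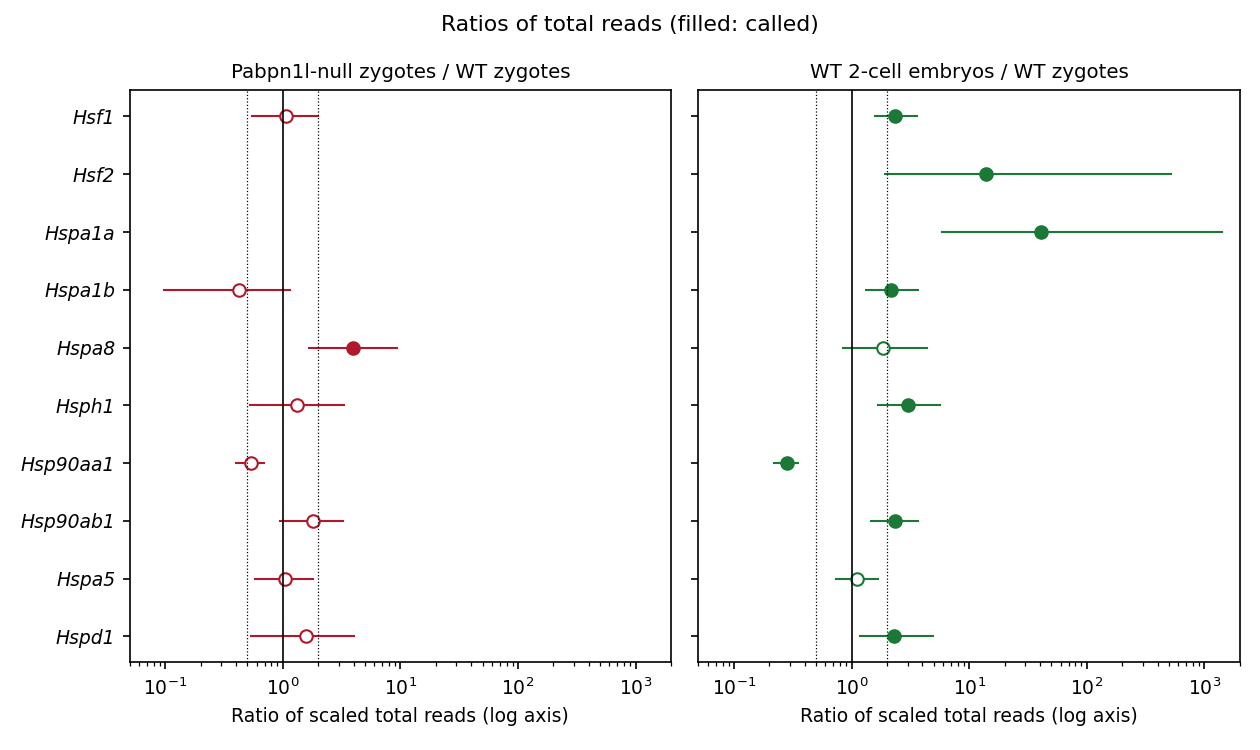
Ratios of scaled total reads (log axis) of Pabpn1l-null zygotes (left) and WT 2-cell embryos (right) to WT zygotes, with 95% intervals. Filled points were called, dotted lines mark 2-fold, and Hsf2 and Hspa1a are left out on the left, where both columns are at or under the detection limit; at left Hspa8 (3.93) is the 1 filled point, and at right 7 genes lie above and Hsp90aa1 (0.281) below.

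The organelle chaperones differed from each other. Hspa5, also known as BiP, is the main HSP70 of the endoplasmic reticulum (chr2:34772090-34776529). It had 140 reads in null zygotes, 431 in 2-cell embryos and 300 in WT zygotes, and its levels of 106, 111 and 100.3 RPM did not differ beyond counting error, with a 2-cell ratio of 1.11 (0.742 to 1.68) and a null ratio of 1.05 (0.586 to 1.83). Hspd1, or HSP60, folds proteins in mitochondria (chr1:55077833-55088243). It had 59 reads in null zygotes, 251 in 2-cell embryos and 85 in WT zygotes, a 2-cell ratio of 2.28 (1.18 to 4.89; exact conditional binomial test, adjusted p = 0.0337). Its null ratio of 1.57 (0.534 to 4.01) did not pass, and it had 2 T-to-C reads, all at the 2-cell stage.

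In null against WT zygotes, then, 1 of 10 members was called higher and 0 lower in total reads, where 0.728% of genes were called higher and 0.701% lower, with 2 members at an unadjusted p under 0.05 by the exact test (Hspa8 and Hsp90aa1). The edgeR test with that variation called 0 members. In T-to-C reads 0 of 6 tested members were called by the exact test in either direction, with 0 at an unadjusted p under 0.05 and 0 by edgeR's exact test, where 0.0686% of genes were called higher and 0% lower. At this depth, with at most 6 T-to-C reads of any member in null zygotes, a difference in labelling was not detectable. Members had a median log2 ratio of 0.09 in total reads and all genes one of -0.15, or 0 with those at 0 in 1 column at their bound.

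In the wider chaperone network more genes were called lower than higher at the 2-cell stage. Of 142 other genes of 7 lists (factors and HSF1 regulators, HSP70, HSP40, HSP90, chaperonins and prefoldin, small heat-shock proteins and the endoplasmic reticulum), 120 were tested in 2-cell embryos against WT zygotes, 14 were called higher and 32 lower, and their median log2 ratio was -0.33. That is 11.7% higher and 26.7% lower, beside 17.2% and 16.9% of all genes. Of the 14, 5 (Bag3, Cct6a, Dnajb14, Eif2ak3 and Unc45a) passed the filter of 20 reads through the 2-cell column alone. Passing in this way, as 15 of the 120 genes did, favoured a higher 2-cell level, so these 5 calls carry no weight. The HSP40 co-chaperones, which deliver clients to HSP70, had 2 of 31 higher (6.45%) and 10 lower (32.3%). Dnajb1, the main partner of inducible HSP70, had 507 reads in null zygotes, 208 in 2-cell embryos and 881 in WT zygotes, a 2-cell ratio of 0.182 (0.119 to 0.276). Dnajb4 (0.0805, 0.0502 to 0.120), Dnajc3, an inhibitor of translational stress kinases (0.0957, 0.0538 to 0.153), and Dnajc11, of the mitochondrial inner membrane organising system (0.112, 0.0699 to 0.169), fell more deeply. Dnajb14, with 104 reads in 2-cell embryos and 0 in WT zygotes, was at least 3.82-fold higher with the 0 set at 21 reads, and at least 2.77-fold at the lower end of the 95% interval. Dnaja2, a general HSP40 with 557 reads in null zygotes, 2004 in 2-cell embryos and 1430 in WT zygotes, had a 2-cell ratio of 1.08 (0.901 to 1.30).

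HSP90 co-chaperones were 2 higher (8.33%) and 5 lower (20.8%) of 24. Cdc37, which brings kinases to HSP90, had 49 reads in null zygotes, 61 in 2-cell embryos and 215 in WT zygotes (2-cell ratio 0.219, 0.0939 to 0.482). Ttc4 (0.0114, 0.000399 to 0.0940), the cyclophilin gene Ppid (0.130, 0.0130 to 0.525) and Chordc1 (0.149, 0.0479 to 0.430) also fell. Unc45a, a myosin chaperone gene with 69 reads in 2-cell embryos and 0 in WT zygotes, was at least 2.54-fold higher with the 0 set at 21 reads, and at least 1.73-fold at the lower end of the 95% interval. Fnip2 was also higher (3.86, 1.37 to 16.2). Ptges3, or p23, which steadies the closed state of HSP90, had 2165 reads in 2-cell embryos and 927 in WT zygotes, and its ratio of 1.80 (1.47 to 2.23) stayed under 2-fold. Fkbp5, with the most reads on this list, had a ratio of 1.34 (1.17 to 1.53).

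**Figure D4:**
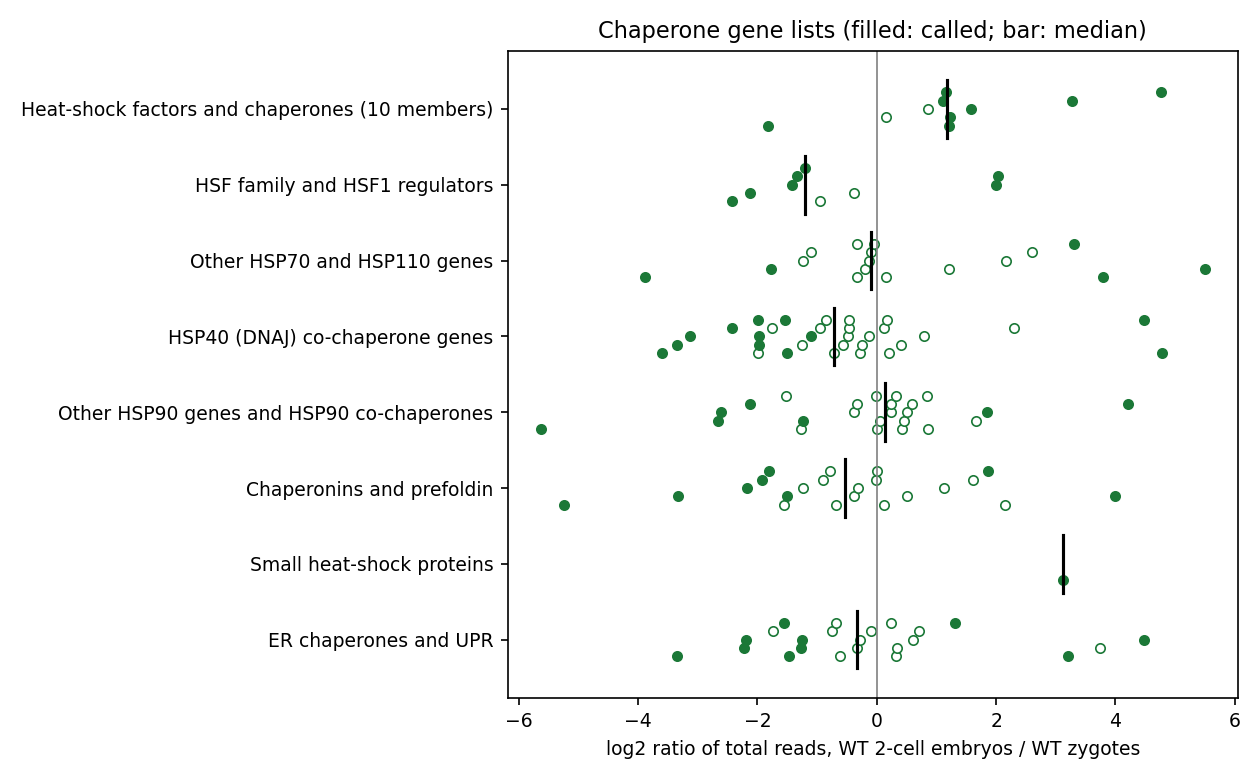
The log2 ratio of total reads in WT 2-cell embryos over WT zygotes for the 10 genes and for 7 lists of other chaperone genes, with 1 circle per gene (filled where called) and a bar at the median. The median of the 10 genes is 1.18 and that of the HSP40 list -0.72; genes with 0 reads in 1 column are drawn at a fitted value that is no bound.

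Among other HSP70 genes and partners, 3 of 17 were higher (17.6%, near the 17.2% of all genes) and 2 lower (11.8%). Bag3, a nucleotide exchange factor that links HSP70 to autophagy and is induced by stress, had 0 reads in null zygotes, 408 in 2-cell embryos and 4 in WT zygotes (2-cell ratio 78.7, 7.73 to 1799), and was tested through its 2-cell reads alone. Bag5 had 0, 1015 and 54 reads in the same order (14.5, 6.92 to 33.0), and with 132 T-to-C reads in 2-cell embryos and 1 in WT zygotes it was the 1 gene of the 53 tested on these lists that was called in T-to-C reads, although it passed that filter through the 2-cell column alone (exact conditional binomial test, adjusted p = 7.78e-04). Hspa2, the HSP70 of the male germ line, had 17, 588 and 43 reads (10.6, 4.76 to 30.3), and it is also a member of the sperm and testis marker list, whose summed level was higher in 2-cell embryos (619 RPM) than in WT zygotes (166). The part of carried-over sperm RNA was not tested. Sil1, an exchange factor for Hspa5, fell (0.0238, 0 to 0.391), as did Hspa12a (0.286, 0.145 to 0.521), while Bag4 had a ratio of 0.910 (0.708 to 1.19).

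Of the 11 small heat-shock protein genes Hspb1 alone could be tested. Hspb1, or HSP27, an inducible chaperone that holds unfolded proteins, had 5 reads in null zygotes, 245 in 2-cell embryos and 19 in WT zygotes (2-cell ratio 9.96, 2.84 to 45.8). Its promoter holds 2 pairs of heat-shock repeats, and that of Bag3 holds 0 in the window searched. Of genes called lower at the 2-cell stage, Cdc37, Hsf5 and Dnajb4 have such a pair in a promoter, and Dnajb1 does not. A link between these repeats and the direction of a difference was not tested. Chaperonins and prefoldin had 2 of 22 higher (9.09%) and 6 lower (27.3%). Cct6a, tested through its 2-cell reads alone, was called higher (142 reads in 2-cell embryos, 4 in WT zygotes; 27.4, 2.47 to 640), and so was the mitochondrial protease subunit gene Clpx (3.81, 1.53 to 9.47). Pfdn4, a prefoldin subunit with 0 reads in 2-cell embryos and 112 in WT zygotes, was at least 6.91-fold lower with the 0 set at 21 reads, with an upper end of 0.200 for the ratio. Grpel1, Txndc9, Pfdn1 and Pdcl3 fell to ratios of 0.218, 0.284, 0.254 and 0.0454.

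The list of factors and regulators had 2 of 9 higher (22.2%) and 5 lower (55.6%) at the 2-cell stage. A gene can stand on several lists, and these 5 include Dnajb1 and Cdc37, which were also counted with HSP40 and HSP90 above. The deacetylase gene Sirt1, which prolongs DNA binding of HSF1, was higher (778 reads in 2-cell embryos, 145 in WT zygotes; 4.14, 2.54 to 6.85), as was the acetyltransferase gene Ep300 (4.02, 2.83 to 5.85). Hsf5, a testis-enriched family member, fell (0.366, 0.205 to 0.667), as did the mitotic kinase gene Plk1 (0.393, 0.238 to 0.637).

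The endoplasmic reticulum list had 3 of 23 higher (13.0%) and 7 lower (30.4%) at the 2-cell stage. Dnajb9, an HSP40 partner of Hspa5, had 31 reads in null zygotes, 1207 in 2-cell embryos and 39 in WT zygotes (2-cell ratio 23.9, 9.96 to 61.1). Eif2ak3, or PERK, had 80 reads in 2-cell embryos and 4 in WT zygotes (15.4, 1.23 to 366), a call that its 2-cell reads alone made testable and that was lost without the filter on low counts (adjusted p = 0.0619 by the exact test). Atf6, a stress sensor and transcription factor, fell in total reads (118 in 2-cell embryos, 435 in WT zygotes; 0.209, 0.116 to 0.367). Its T-to-C share was higher, 38.1% in 2-cell embryos and 3.45% in WT zygotes (Fisher's exact test on molecules, adjusted p = 0.0494), a call lost when genes with 7 or more reads were tested as well (adjusted p = 0.0654). The disulphide isomerase genes Pdia6 (0.201, 0.0566 to 0.530) and Pdia3 (0.328, 0.132 to 0.666) fell. Atf4, with the most reads on the list, had a ratio of 0.592 (0.477 to 0.736). The edgeR test at the assumed variation ended the 2-cell calls of Cdc37, Sirt1, Ep300, Hsf5, Plk1, Hspa12a, Fnip2, Pfdn1, Clpx and Pdia3 (adjusted p between 0.0531 and 0.253). Only called genes named here were checked this way, and the fate of the other 2-cell calls on these lists was not examined.

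In null against WT zygotes the 120 genes gave 4 higher (3.33%) and 2 lower (1.67%), with a median of 0, beside 0.728% and 0.701% of all genes. Of the 4, 3 belong to the endoplasmic reticulum list, whose difference from the other lists was not tested. Ern1, or IRE1, the kinase that senses unfolded proteins there, had 1095 reads in null zygotes and 886 in WT zygotes (ratio 2.79, 2.18 to 3.54), with 42 T-to-C reads in null zygotes and 5 in WT zygotes, a difference that did not pass. Hyou1, the HSP110 of the endoplasmic reticulum, had 249 and 158 reads in null and WT zygotes (3.56, 2.04 to 6.25), and P4hb, a disulphide isomerase, 209 and 182 (2.59, 1.49 to 4.59). Pfdn4 was also higher (3.27, 1.64 to 6.58), while Txndc9 (0.336, 0.190 to 0.586) and Fnip1 (0.143, 0.0287 to 0.448) were lower. All 6 calls were lost with that edgeR test, where adjusted p lay between 0.0905 and 0.584. The median log2 ratio of that list was 0.36.

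For 3 members, the genes with the most similar profile were found among 5104 genes with at least 200 reads, by Euclidean distance over 6 values, the centred log2 levels of total and T-to-C reads in the 3 columns. Nearest to Hsf1 was Ssrp1, a subunit of the histone chaperone FACT, at a distance of 0.42. Ssrp1 had 44 reads in null zygotes, 424 in 2-cell embryos and 123 in WT zygotes, and 0, 199 and 5 T-to-C reads. The cyclin gene Ccna2 (0.60) and Sdf4, a calcium-binding protein gene (0.63), followed. Nearest to Hspa8 were Pdzrn3 (0.45), Zfp408 (0.51) and the transcription factor gene Cebpb (0.53). Cebpb had 193 reads in null zygotes, 242 in 2-cell embryos and 139 in WT zygotes. Nearest to Hsp90ab1 were Bysl, needed for small ribosomal subunit assembly (0.30), Slmo2 (0.35) and Epb4.1 (0.35). With 3 columns per gene, such likeness is a description of these libraries.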

How the data were processed

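Reads of S4U-labelled, rRNA-depleted and alkylated RNA had mm10 as their genome build, per the submitters' processing notes, while the aligner, counter, annotation, duplicate handling and any pooling of samples are not stated. The table the authors deposited gives raw read counts and T-to-C read counts per row, and a Positive or Negative mark, for 1 column pair per group. Of 30493 rows, 47 with a date as name were left out; a repeated name was represented by its best-read row. TMM factors for scaling were 1.04, 0.963 and 0.996 (null zygotes, 2-cell embryos and WT zygotes, from edgeR 4.0.16). Counts divided by 7 and rounded were compared by the exact conditional binomial test, and shares by Fisher's exact test (scipy 1.17.1), in genes with at least 20 total reads or 10 T-to-C reads over the 3 columns, or 20 total reads in both columns for shares. Adjustment for multiple tests was by Benjamini and Hochberg, and log2 ratios had 0.5 molecule added. Tests were checked on simulated data. Gene ratios are plain ratios of scaled reads. Intervals of ratios and shares are Clopper-Pearson intervals, and those of levels are Poisson intervals.

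The members, lists and tests were chosen with earlier results of these data known. Named genes are the 10 members, the called genes of each chaperone list (up to 6 per list, comparison and quantity), the 2 genes with the most reads per list, the nearest profiles and Pabpn1l. Hspb6, with under 20 reads, is not described. Alternatives were RLE factors, column totals, no filter, other counts of reads per molecule, T-to-C totals, summed rows and edgeR's exact test on undivided reads. Leaving out the null column was added after the data were seen. Quasi-likelihood tests, DESeq2 and the omission of replicates need replicates and could not be run.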

Additional observations from a re-analysis of the deposited data

How the results depend on the processing

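The edgeR exact test at an assumed biological variation of 0.4 called 0 of 10 members in total reads in null against WT zygotes, 2 at the 2-cell stage (Hsf2 and Hspa1a) and 2 in 2-cell T-to-C reads (Hsf1 and Hsph1). Counting every read as 1 molecule gave 2 members in null total reads (Hspa8 higher, Hspa1b lower), 4 in 2-cell T-to-C reads, 1 in null T-to-C share (Hsp90ab1 lower) and 2 in 2-cell share (Hsf1 and Hsp90aa1). Taking 7 reads per molecule in the null column alone differs from that setting only in the null column. At the 2-cell stage it was therefore the same test, and its same 4 and 2 are no separate check. A minimum of 7 reads for shares gave 0 members at the 2-cell stage. There it left the counts of Hsf1 unchanged and raised the number of genes adjusted over from 6909 to 9138. The cause of the other differences was not tested. With RLE factors, column totals, no filter, summed rows or the null column left out, the same 7 members were called higher and Hsp90aa1 lower in 2-cell total reads. RLE shifted the median of all genes by 0.25 (log2) there, with 2343 genes called higher and 1531 lower, against 1940 and 1905 with TMM. T-to-C totals shifted the T-to-C median by -0.43, with 102 higher and 124 lower against 190 and 74.

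Of the values for members, 286 kept direction and call, 11 gained a call, 8 lost one and 11 changed sign, all of these uncalled (log2). In null against WT zygotes these were Hspa1a total reads (0.0874), and, as T-to-C share, Hsf1 (0.3419), Hspa8 (0.363), all with 7 reads per molecule in the null column alone, and Hspa1b (-1.3148) and Hsp90aa1 (-0.0754) with every read as 1 molecule. At the 2-cell stage they were T-to-C reads of Hspa5 under T-to-C totals (-0.035) and of Hsp90aa1 under RLE (0.1264). The shares of Hspa8 (0.62) and Hspd1 (0.7709) there changed sign under both molecule settings, which are the same test at that stage. Other named genes kept 293 values and lost 18 calls. No paired analysis was possible because the columns carry no replicate number and each group has 1 column. Leaving out a replicate was not possible for the same reason. At 7 reads per molecule, a count of 0 allows 21 reads in any column.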
